A study of Oscheius tipulae with 48 samples.

Results

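Post-dauer mature adults of the nematode Oscheius tipulae were compared with mature adults that had grown without passing through the dauer stage. The members were the 2 libraries labelled post-dauer mature adult and the 2 labelled mature adult, 4 of the 48 libraries of the series, chosen by their labels. All were made from whole worms of strain CEW1. Post-dauer mature adults came from a culture in liquid, from which dauer larvae were harvested and then let recover. Direct mature adults came from L1 larvae hatched and arrested without food, which were then fed on plates with OP50 bacteria at 20 °C. Neither age in days nor the recovery temperature of the post-dauer worms is given in the labels, so culture history and age cannot be told apart from passage through dauer. The other groups serve as a scale of stages: embryos, L1 to L4 larvae, dauer larvae, post-dauer L3, L4 and young adults, young adults, and males of the him-1(sy527) mutant. By the labels, embryos of known cell number were grown warmer than the 20 °C of L2, L3 and L4 larvae and direct adults. Where lists or peak stages below set these embryos against those worms, stage and temperature differ together. The titles call replicates biological, and the labels do not say that they came from separate cultures. The p-values below reflect the spread between replicates over the 25 libraries fitted, not over the 4 compared alone. That spread may be technical in part.

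Dauer is an alternative larval stage that nematodes such as Caenorhabditis elegans enter under crowding, heat or lack of food. Dauer larvae do not feed, resist stress and live on stored fat, and on return of food they resume development and become reproductive adults. In adult hermaphrodites of C. elegans the gonad makes oocytes and the intestine makes yolk proteins, so adult whole-worm RNA holds transcripts of the germ line, of yolk production and of embryos still inside the body. The deposited file gives each gene of O. tipulae by an ID and does not pair the IDs with names. No function is therefore given to any gene below, and gene groups are named after the stage in which their members were high.

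Values are RPKM, read numbers divided by gene length and library total, for 14558 genes. The 4 libraries summed to 602512 and 567743 RPKM in post-dauer mature adults, against 520247 and 574467 RPKM in direct mature adults. Genes at 1 RPKM or more numbered 11380 and 10726 in the post-dauer libraries and 8866 and 10859 in the direct ones. Read depth is not given, but the steps that 1 read leaves in low values placed the 2 post-dauer libraries at 0.537 and 0.514 times, and direct replicate 2 at 0.710 times, the depth of direct replicate 1, up to a small whole factor. Direct replicate 1 had the fewest genes at 1 RPKM. The 3124 genes that were silent in most of the series (median under 0.5 RPKM over all libraries) had a median of 0.49 and 0.25 RPKM in post-dauer and of 0 and 0.26 RPKM in direct mature adults, so no mature adult library carried the raised level of silent genes seen in dauer replicates 1 and 2 (3.59 and 1.55 RPKM) and in post-dauer young adult replicate 1 (5.32 RPKM).

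The label was checked against genes that mark directly grown adults. A list of 35 genes was drawn from young adults, with at least 10 RPKM in both young adult libraries and a mean at least 2 higher on the log2(RPKM + 1) scale than in L2, L3, L4, males and 2-4 cell embryos. No mature adult library entered this choice. In the libraries labelled post-dauer mature adult the median level of the list was 0.86 and 2.87 RPKM, against 157 and 92.6 RPKM in direct mature adults. Both post-dauer libraries were thus far below both direct libraries and below the L4 larvae, whose medians were 5.82 and 5.62 RPKM. Of the 35 genes, 21 and 10 were under 1 RPKM in post-dauer replicates 1 and 2, against 0 in either direct library. The highest member reached 11.0 and 20.0 RPKM in the post-dauer libraries, against 9926 and 3026 RPKM in the direct ones. The values therefore went against the label for the genes that mark direct adults, and the name post-dauer mature adult is used below as a label only. The same holds for the libraries labelled post-dauer young adult, whose medians of 6.61 and 3.79 RPKM lay near those of L4, against 61.5 and 81.0 RPKM in direct young adults, which helped to define the list. A low level of these RNAs in whole worms can reflect fewer cells that make them or less RNA per cell. Worms of another stage than the label gives could show it too. These cannot be told apart here.

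Among all genes, more were higher than lower in post-dauer mature adults. A gene was called when limma, fitted over 25 larval, dauer and adult libraries in 12 groups, gave an adjusted p (Benjamini-Hochberg) below 0.05 and the log2 change was 1 or more in either direction. Of 14446 genes tested, 577 were called higher (3.99%) and 107 lower (0.741%), together 4.73%, and 3048 had an unadjusted p under 0.05. The libraries of the groups did not overlap for 5203 genes higher (36.0%) and 3108 genes lower (21.5%). Over all genes the log2 change had a median of 0.28. Quantile normalization gave a split of 114 higher and 92 lower. With 6 libraries that stand apart elsewhere in the series left out, 2358 genes were higher and 1029 lower, and these included all 577 and all 107. None of the 4 mature adult libraries was among those 6, so the log2 changes stayed as they were. Only the shared estimate of spread and the set of genes tested (13685) differed. That all earlier calls were kept is therefore no separate check of them. Leaving out 1 of the 4 mature adult libraries lowered the count, except for direct replicate 2: 28 genes were higher and 31 lower without direct replicate 1, 45 and 34 without post-dauer replicate 1, and 138 and 49 without post-dauer replicate 2.

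**Figure D1:**
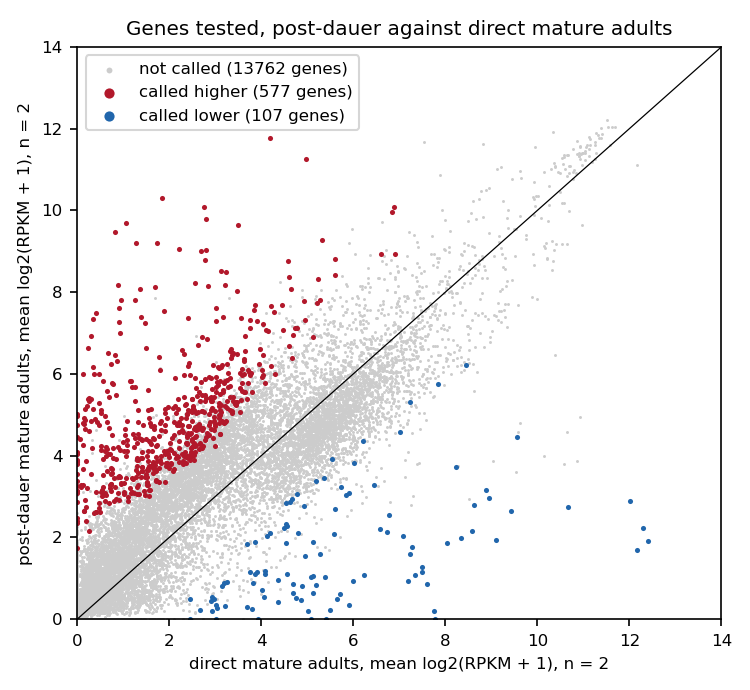
Mean log2(RPKM + 1) of the 14446 genes tested in post-dauer mature adults (vertical axis, n = 2) against direct mature adults (horizontal axis, n = 2), with the line of equal levels. The 577 genes called higher lie mostly at low levels in direct adults, and the 107 called lower reach the highest levels of direct adults.

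Fold sizes reached further among the lower than among the higher genes. Log2 changes of the 107 lower genes had a median size of 3.45 and reached 10.52, and 61 of them were 3 or more in size. Those of the 577 higher genes had a median size of 2.56 and reached 8.66, and 201 of them were 3 or more. Of the 107 lower genes, 88 had at least 10 RPKM and 5 at least 1000 RPKM in both direct libraries, while 32 were under 1 RPKM and 6 listed at 0 in both post-dauer libraries. Of the 577 higher genes, 460 had at least 10 RPKM and 3 at least 1000 RPKM in both post-dauer libraries, while 100 were under 1 RPKM and 21 listed at 0 in both direct libraries. Over the whole file, 52 genes had at least 10 RPKM in both post-dauer and under 1 RPKM in both direct libraries, and 18 genes showed the reverse.

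These genes made up a sizeable part of the RNA measured. The 107 lower genes took 0.0720% and 0.117% of the RPKM sum in post-dauer mature adults, against 9.92% and 3.47% in direct mature adults. The 577 higher genes took 9.35% and 6.58% in post-dauer mature adults, against 0.440% and 0.844% in direct mature adults. Most abundant transcripts were nonetheless shared: of the 100 highest genes of a library, 91 were common to both post-dauer libraries, 87 to both direct libraries, and 70 to 72 to a post-dauer and a direct library.

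Oti_g12875 was among the most abundant transcripts of direct adults and nearly absent from post-dauer mature adults. It stood at 1.44 and 4.70 RPKM in the post-dauer libraries, against 9839.68 and 3026.23 RPKM in the direct ones, where it ranked 3 and 9 among all genes. The log2 change was -10.52 ± 0.79 (SE, limma Benjamini-Hochberg adjusted p = 9.57e-07). Along direct growth its level was 10.83 and 5.05 RPKM in L3, 77.1 and 109 RPKM in L4 and 638.68 and 1737.96 RPKM in young adults, an increase at each stage with no overlap between neighbouring stages. Along recovery from dauer it was 2.87 and 0.43 RPKM among post-dauer L3, then 2.61 and 3.92 RPKM among post-dauer L4, then 9.02 and 15.84 RPKM among libraries labelled post-dauer young adult. The post-dauer libraries were below the direct ones at each of these 4 stages.

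Oti_g13559 had nearly the same profile. It was at 0.95 and 4.30 RPKM in post-dauer mature adults, against 9851.42 and 2143.46 RPKM in direct mature adults, and the log2 change was -10.48 ± 0.89 (SE; adjusted p = 3.47e-06, limma with Benjamini-Hochberg). Direct young adults held 604.73 and 1708.94 RPKM and post-dauer young adults 8.66 and 19.20 RPKM. Males, with 5.88 and 2.47 RPKM, and embryos of every stage, with at most 3.78 RPKM, were low in this gene. The 2 direct mature adult libraries differed severalfold in both genes, with replicate 1 the higher, yet each stood far above both post-dauer libraries.

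Oti_g11075 led the genes higher in post-dauer mature adults. Its levels were 861.96 and 580.09 RPKM in the post-dauer libraries, against 0 and 2.07 RPKM in the direct ones. The log2 change was 8.66 ± 1.29 (SE, limma Benjamini-Hochberg adjusted p = 0.00103). Dauer larvae held 272.42 and 276.81 RPKM and the L1 libraries 71.43, 341.45 and 27.35 RPKM, and the L2, L3 and male libraries lay between 23.1 and 82.0 RPKM. Direct L4 larvae held 4.75 and 7.49 RPKM. Post-dauer young adults were split, at 772.63 and 43.55 RPKM, and overlapped direct young adults, at 100.22 and 9.82 RPKM. The higher of the post-dauer values is that of replicate 1, whose silent genes were raised.

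Oti_g07062 was at 719.59 and 945.81 RPKM in post-dauer mature adults, against 0.23 and 2.55 RPKM in direct mature adults. Its log2 change was 8.63 ± 1.12 (SE, limma Benjamini-Hochberg adjusted p = 0.0005). It too was high in dauer larvae, with 249.92 and 172.17 RPKM, and in post-dauer L4, with 328.96 and 152.81 RPKM, against 4.17 and 6.12 RPKM in direct L4. Post-dauer L3 libraries held only 7.58 and 16.86 RPKM, close to the 9.83 and 4.89 RPKM of direct L3. Post-dauer young adults were at 626.43 and 106.92 RPKM, and direct young adults at 46.94 and 12.74 RPKM. Along recovery the gene was thus high in dauer, low in post-dauer L3 and high again from post-dauer L4 on. High levels were not particular to these worms. Males held 86.17 and 162.06 RPKM and the L1 libraries 14.51, 267.51 and 9.91 RPKM. Without any 1 of the 4 mature adult libraries all 4 of these genes were still called, and the highest adjusted p among them was 0.0412, for Oti_g11075 without direct replicate 1 (limma, Benjamini-Hochberg).

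**Figure D2:**
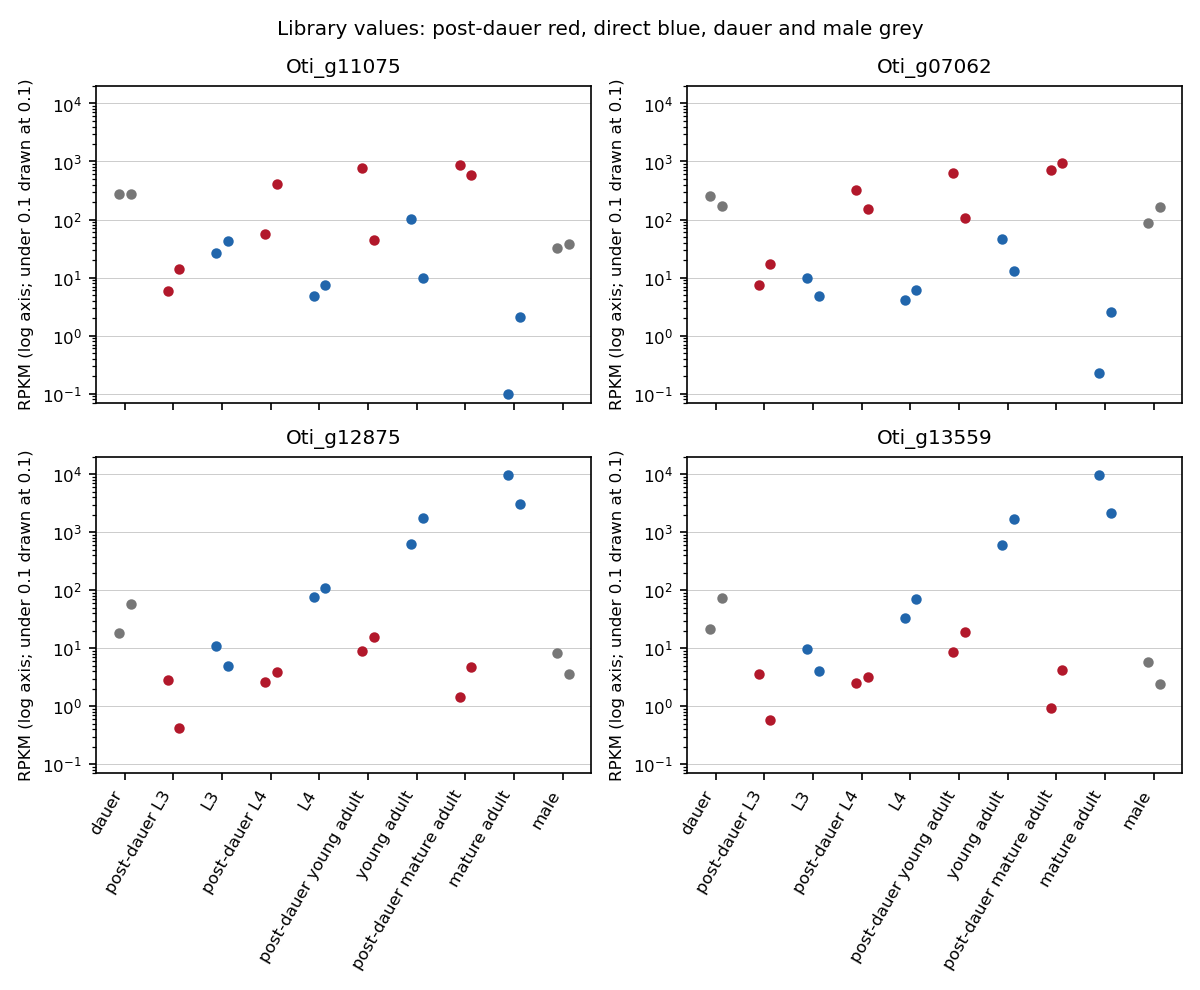
RPKM on a log axis in each library of 10 groups for the 4 named genes, with post-dauer libraries in red, direct ones in blue, and dauer and males in grey. Oti_g11075 and Oti_g07062 are at 580 RPKM or more in both post-dauer mature adults and at most 2.55 RPKM in direct ones, and the other pair is at least at 2143 RPKM in direct and at most at 4.70 RPKM in post-dauer mature adults.

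Gene lists defined by other stages were used to describe the difference between the groups. All were built as the young adult list was, from libraries other than mature adult and post-dauer ones, and they are described by counts and medians without a test. In the young adult list 32 of 35 genes were called lower and 0 higher in post-dauer mature adults, against 0.741% and 3.99% of all genes. Its median log2 change was -5.16, against 0.28 for all genes, and single members ranged from -10.52 to -0.88. Oti_g12875, which gave the -10.52, and Oti_g13559 are members, so the list and these named genes are not separate results. The remaining 3 genes were not called. The median log2 change of the list was -5.11 without direct replicate 1 and -5.70 without direct replicate 2. It was -4.92 without post-dauer replicate 1 and -5.71 without post-dauer replicate 2. Fewer list members, and fewer of all genes, were called lower in each of these fits. The 32 genes made up 29.9% of the 107 lower genes.

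The dauer list held 117 genes, high in both dauer libraries over L1 to L4. Oti_g07062 is a member, and the list shares 2 genes with the young adult list. Of these, 47 were called higher, 40.2% against 3.99% of all genes, and 2 lower, 1.71% against 0.741%. The median level was 13.8 and 6.73 RPKM in post-dauer mature adults, against 0.24 and 0.70 RPKM in direct mature adults, and the groups did not overlap for 80 genes higher (36.0% of all genes were so) and 2 lower (21.5% of all genes). The median log2 change was 1.95, against 0.28 for all genes, and it was 2.95 without post-dauer replicate 2, the library with the lower median. The list was split among its members: 50 genes had at least 10 RPKM in both post-dauer libraries, 4 were under 1 RPKM in both, and 68 were under 1 RPKM in both direct libraries. The median log2 change was 1.805 without direct replicate 1, 2.27 without direct replicate 2 and 1.87 without post-dauer replicate 1. Fewer list members were called higher without any 1 of the 4 libraries. Fewer of all genes were too, except without direct replicate 2. The 47 genes were 8.15% of the 577 higher genes. The dauer libraries that define the list had the raised silent-gene medians already given; with the list redefined after those medians were subtracted, its median log2 change was 2.43.

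**Figure D3:**
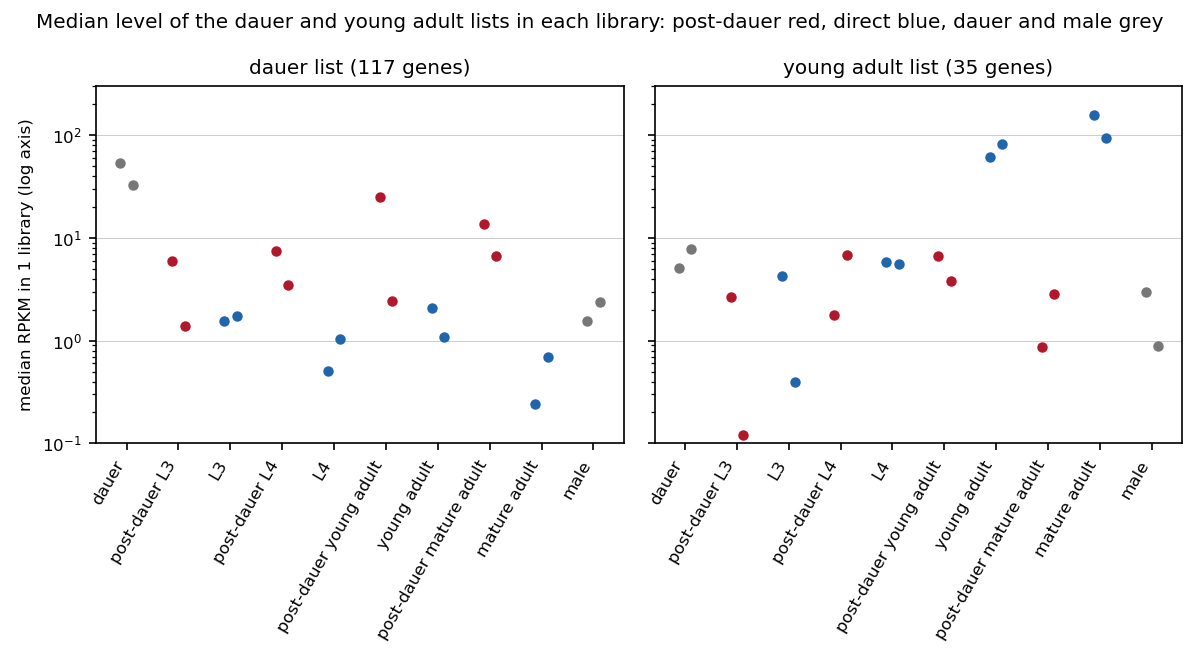
Median RPKM of the 117 dauer list genes (left) and the 35 young adult list genes (right) in each library of 10 groups, on a log axis, with post-dauer in red, direct in blue, dauer and males in grey. The young adult list is at 61.5 RPKM or more in direct young and mature adults and at most 6.82 RPKM in post-dauer libraries of any stage, and the dauer list is at 6.73 RPKM or more in post-dauer and at most 0.70 RPKM in direct mature adults.

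Across recovery, the dauer list did not stay high. Its library medians were 53.9 and 32.9 RPKM in dauer, 5.92 and 1.40 RPKM among post-dauer L3, 7.50 and 3.48 RPKM among post-dauer L4, 25.2 and 2.41 RPKM in post-dauer young adults, and 13.8 and 6.73 RPKM in post-dauer mature adults. The highest of the middle values, 25.2 RPKM, is that of post-dauer young adult replicate 1. Among directly grown worms the list was at 1.54 and 1.75 RPKM in L3, 0.51 and 1.04 RPKM in L4, 2.07 and 1.08 RPKM in young adults and 0.24 and 0.70 RPKM in mature adults, which overlapped L4. Post-dauer mature adults lay above direct worms of each of these stages and below dauer larvae. Dauer, L3 and L4 libraries helped to define the list. Its high level in dauer and low level in direct L3 and L4 were thus set by that choice.

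Early embryo genes, 181 that were high in 2-4 cell embryos over L2, L3, L4 and males form the next list; as background, such embryos still hold RNA that the mother loads into the egg. Their median level was 6.25 and 5.61 RPKM in post-dauer mature adults, against 26.4 and 12.4 RPKM in direct mature adults, with no overlap. Of the 181 genes, 3 were called lower, 1.66% against 0.741% of all genes, and 0 higher, against 3.99%. The groups did not overlap for 112 lower (21.5% of all genes were so) and 14 higher (36.0% of all genes). In limma 41 of the 181 genes had an unadjusted p under 0.05, close to the share of all genes tested (3048 of 14446). The median log2 change was -1.07, but it was -0.27 for the 100 genes of greatest excess and -0.23 for a stricter list. The 54 later embryo genes, high at 32-64 cells over 2-4 cells, had 0 genes called in either direction by limma, 4 at an unadjusted p under 0.05 and a median log2 change of 0.42, with library medians of 2.315 and 1.755 RPKM in post-dauer and 1.13 and 1.61 RPKM in direct mature adults.

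Library medians of the male, larval and L4 lists did not separate the groups, and the 2 direct libraries differed from each other. The male list, 300 genes high in males, had a median of 0.715 and 1.095 RPKM in post-dauer mature adults, against 0.52 and 6.97 RPKM in direct mature adults and 76.1 and 92.0 RPKM in males. The larval list, 208 genes high in L2, L3 and L4, had medians of 8.85 and 3.445 RPKM in post-dauer and 0.61 and 10.14 RPKM in direct mature adults. The L4 list, 21 genes, had 2.52 and 2.17 RPKM in post-dauer and 1.12 and 11.45 RPKM in direct mature adults. In all 3 lists the direct libraries lay on either side of the post-dauer ones, with replicate 2 the higher. Median log2 changes were -0.88 for the male, 0.50 for the larval and -0.76 for the L4 list. Without direct replicate 1 they were -2.04, -0.75 and -1.89, and without direct replicate 2 they were 0.15, 1.54 and 0.59. Genes called by limma numbered 0 of 300 in the male list, 1 higher of 208 in the larval list (0.481%) and 1 higher of 21 in the L4 list (4.76%). Of all genes 3.99% were called higher and 0.741% lower. In the male list 13 of 300 genes had an unadjusted p under 0.05 in limma, against 3048 of all 14446. Limma shares its estimate of spread over 25 libraries, and replicates of some other groups were split in this list. Its medians were 0 and 10.655 RPKM in direct young adults and 1.765 and 9.595 RPKM in post-dauer L4. The part of this split in the limma counts was not tested. The groups did not overlap for 76 male list genes lower (25.3% against 21.5% of all genes) and 4 higher (1.33% against 36.0%).

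**Figure D4:**
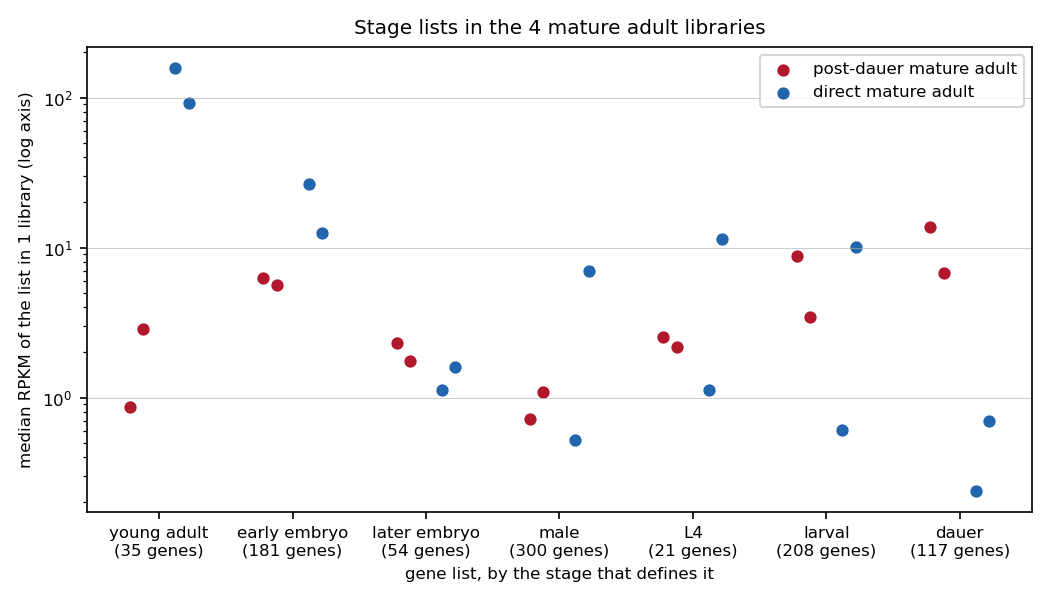
Median RPKM, on a log axis, of 7 stage lists in each of the 4 mature adult libraries, post-dauer in red and direct in blue. Post-dauer libraries lie below direct ones for the young adult and early embryo lists and above them for the dauer and later embryo lists, and the 2 direct libraries lie on both sides for the male, L4 and larval lists.

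Each called gene was also given the stage at which it was highest, among 9 embryo, larval, dauer, male and young adult groups. These include no mature adult or post-dauer library. The lower genes were called for a high level in direct mature adults, and young adults are the stage next to them. The share of lower genes highest in young adults is therefore no separate check of the calls. Of the 107 lower genes 72 were highest in young adults, 67.3% against 5.66% of all genes tested, and 14 were highest in 2-4 cell embryos, 13.1% against 12.5%. Of the 577 higher genes 264 were highest in dauer, 45.8% against 25.7% of all genes, and 105 in 32-64 cell embryos, 18.2% against 10.9%. Another 67 were highest in L2, 11.6% against 12.1%, and 9 in young adults, 1.56% against 5.66%. Silent genes had a raised level in both dauer libraries, and their part in either share of genes that peak in dauer was not tested.

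The same genes were followed in post-dauer and direct worms of earlier stages, which share no library with the mature adults. Those libraries did enter the fit that called the genes, through the shared estimate of spread. The shares without overlap given here are therefore not independent of the calls. Among young adults, the libraries did not overlap for 74 of the 107 lower genes in the same direction, 69.2% against 15.4% of all genes tested, and for 0 in the opposite direction. Their library median was 5.70 and 5.17 RPKM in post-dauer and 17.5 and 26.0 RPKM in direct young adults. Of the 577 higher genes, 296 were higher without overlap in post-dauer young adults, 51.3% against 27.7% of all genes, and 2 were lower. In post-dauer young adult replicate 1 the silent genes had the raised median of 5.32 RPKM, and their part in these counts was not tested. Limma called 5 of the lower genes lower at this stage (0.0346% of all genes were, and 0% higher) and 0 of the higher ones, and 5 genes in all.

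At L4, limma called 24 of the 577 genes higher (0.228% of all genes were) and 0 lower, and it called 3 of the 107 genes lower (0.651% of all genes were) and 0 higher. The 577 genes had library medians of 15.9 and 16.3 RPKM for post-dauer L4, against 10.3 RPKM in both direct L4 libraries, with 356 higher without overlap, 61.7% against 28.6% of all genes, and 70 lower. For the 107 genes the medians were 2.05 and 6.36 RPKM with post-dauer L4, against 4.51 and 4.82 RPKM in direct L4, with 28 lower without overlap, 26.2% against 25.4% of all genes, and 29 higher. At L3 the medians of the 577 genes lay the other way: 10.6 and 10.4 RPKM in post-dauer L3 and 15.0 and 13.1 RPKM in direct L3, with 222 lower without overlap, 38.5% against 16.3% of all genes, and 34 higher, 5.89% against 15.1%. Limma called 0 of these genes at L3, and 0 genes in all (0% in either direction), with 279 of all genes at an unadjusted p under 0.05 and a lowest adjusted p of 0.166.

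**Figure D5:**
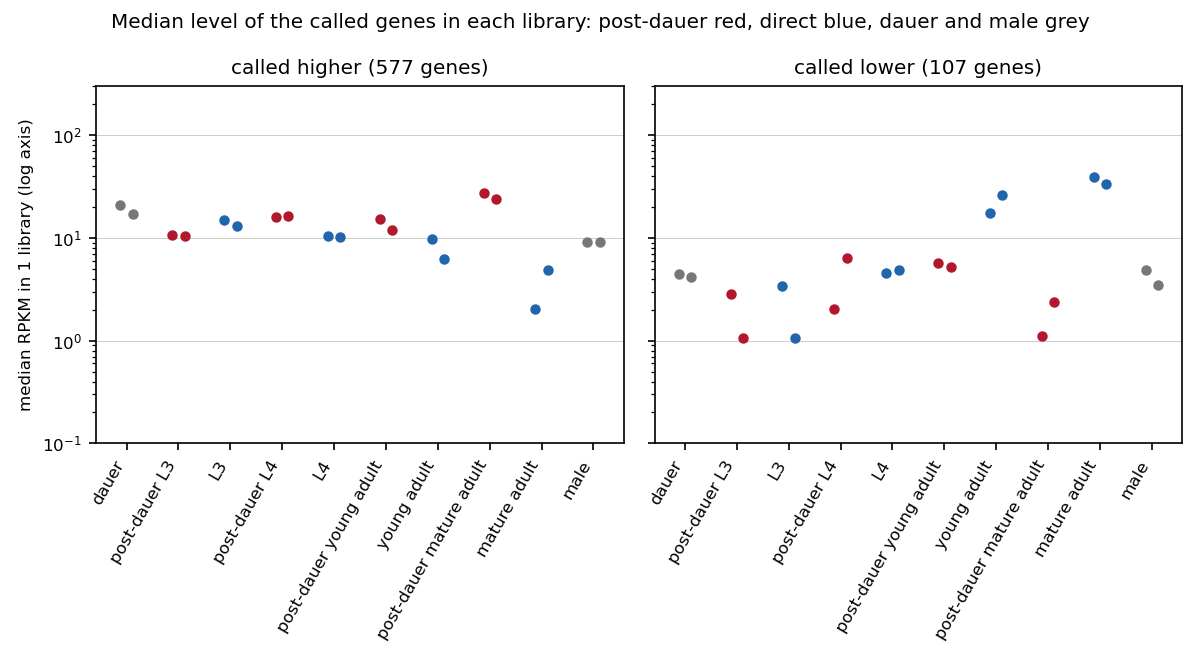
Median RPKM, on a log axis, of the 577 higher and the 107 lower genes in each library of 10 groups, post-dauer in red, direct in blue, dauer and males in grey. Higher genes are at 23.8 RPKM or more in post-dauer mature adults and at most 4.84 RPKM in direct ones, and lower genes are at 33.25 RPKM or more in direct and at most 2.39 RPKM in post-dauer mature adults.

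Whether the post-dauer difference itself changed between young and mature adults was tested as a difference of differences. Limma called 0 of 14446 genes (0%), with 1113 at an unadjusted p under 0.05 and a lowest adjusted p of 0.585, so no gene was shown to respond differently at the 2 stages. The count became 966 without post-dauer young adult replicate 2 and 132 without direct young adult replicate 2. For naming, genes were ranked upwards by their smallest library difference, post-dauer minus direct, in mature adults, less their largest in young adults. Oti_g10397, a member of the dauer list, led, at 829.20 and 424.14 RPKM in post-dauer and 1.27 and 3.94 RPKM in direct mature adults. In young adults it was at 37.33 and 42.94 RPKM in post-dauer and 24.99 and 8.47 RPKM in direct libraries. The difference between the stages was 6.08 ± 1.66 on the log2 scale (SE, limma Benjamini-Hochberg adjusted p = 0.585) and was not called. Oti_g04768, next in order, was at 1269.34 and 1253.78 RPKM in post-dauer and 0.33 and 8.73 RPKM in direct mature adults, against 265.22 and 188.34 RPKM in post-dauer and 19.29 and 36.30 RPKM in direct young adults.

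In the opposite direction genes were ranked by their smallest such difference in young adults, less their largest in mature adults. Oti_g14478 led, although its mean difference between stages was smaller in size than that of the next gene. It was listed at 0 in both post-dauer mature adults and at 28.39 and 37.73 RPKM in direct ones, against 5.81 and 1.90 RPKM in post-dauer and 5.30 and 26.53 RPKM in direct young adults, a difference between stages of -3.51 ± 0.94 (SE, limma Benjamini-Hochberg adjusted p = 0.585). Oti_g12875, already described, was next, with log2 changes of -10.52 in mature and -6.34 in young adults, a difference of -4.17. Its adjusted p for the difference of these changes ranged from 0.063 to 0.989 over the alternatives (limma, Benjamini-Hochberg).

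As whole profiles, the groups were each closer within than between. Across 14446 genes on the log2(RPKM + 1) scale, the 2 post-dauer libraries correlated at r = 0.937 and the 2 direct ones at 0.935, while post-dauer against direct libraries gave 0.796 to 0.868. After its own replicate, each post-dauer mature adult library was closest to post-dauer L4 replicate 1 (0.927 and 0.916), a library whose silent genes were at a median of 1.365 RPKM. Direct replicate 2 was closest to young adult replicate 2 (0.982), above its own replicate. Genes are not independent, the points share a library and its depth, and these values describe libraries only. The direct replicates also differed in level: 3402 genes were at least 1 higher on the log2 scale in replicate 2 and 180 in replicate 1, against 953 and 1506 genes between post-dauer replicates 2 and 1.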

How the data were processed

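Libraries were prepared from total RNA after depletion of ribosomal RNA, per the labels' protocols. The authors deposited RPKM values for 14558 gene IDs in 48 columns, 1 per library; the values have decimals and unequal library totals, from which the unit was read. HTSeq 2.0.2, StringTie 2.2.0, STAR 2.7.10 and Bowtie2 2.4.2 are named, without roles, in the submitters' processing notes; build and annotation: not given in the sources used here. Overlapping or near-identical genes could share reads.

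Values were taken as log2(RPKM + 1), which understates changes of low genes, and kept where 2 of 25 libraries reached 1 RPKM. Limma 3.58.1 in R 4.3.3, with trend and robust moderation, was fitted over 12 groups and tested on simulated data. The 25 libraries share 1 estimate of the spread; with 2 libraries per group an exact permutation test cannot go below p = 0.333. Named genes were the 2 of largest fold change per direction among called genes without overlap. Their mean was at least 10 RPKM in the higher group. For the difference between stages none was called. There the 2 leading genes per direction were taken by the ranking given with them. Their mean was at least 10 RPKM over the young and mature adult groups. Stage lists held at most 300 genes. Lists of named pathways need gene names and were not analysed here. Members and lists were chosen with earlier results of these data known. Columns of L2, L3 and L4 have other replicate digits than the labels and enter by group. Alternatives were other scaling, pseudocount, filter, trend, libraries in the fit, a replicate block, list rules, and leaving out each library.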

Additional observations from a re-analysis of the deposited data

Results flagged for a closer look

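The 577 genes higher in post-dauer mature adults lay in the opposite direction at L3. The mean of their library medians was lower by 3.51 RPKM in post-dauer than in direct L3 (difference -3.51 RPKM) and higher by 21.96 RPKM in post-dauer than in direct mature adults, with every library on its side in both stages. The early embryo list also lay in opposite directions: 3.06 RPKM higher in post-dauer than in direct L3, 8.89 RPKM higher in post-dauer than in direct L4, and lower in post-dauer than in direct mature adults (difference -13.5 RPKM). These differences between stages were not tested, and the 577 genes were chosen on the mature adults. Silent genes had a raised median of 2.44 RPKM in post-dauer L3 replicate 1 and of 1.365 RPKM in post-dauer L4 replicate 1, and their part in the result was not tested.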

How the results depend on the processing

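The 684 genes called between post-dauer and direct mature adults became 1153 (648 higher, 505 lower) with the 4 mature adult libraries alone, 206 (114 higher, 92 lower) after quantile normalization, 3387 (2358 higher, 1029 lower) without the 6 libraries that stand apart, 411 (330 higher, 81 lower) after the silent-gene median was subtracted, and 59 to 686 when each mature adult library was left out. With the replicate number as a block, in a fit that had to leave out L2, L3 and L4, the count was 242; the same fit without the block, chosen after seeing the data, gave 232. Between same-numbered mature adult libraries, deviations from the group means correlated across genes at -0.02. This value covers the mature adult libraries only, and whether a shared replicate number marks a batch in the series was not tested. The difference between young and mature adults gave 0 to 966 genes when 1 of 8 libraries was left out, with 132 without young adult replicate 2. It stayed at 0 under the other settings, the replicate block included, where 733 genes had an unadjusted p under 0.05 in limma. All 52 alternative values of the 4 genes named in the comparison of mature adults kept direction and call. Oti_g14478 was called as different between stages without young adult replicate 2 and without post-dauer young adult replicate 2 (limma adjusted p = 0.0286 and 0.0287, 0.0286 to 0.989 over all alternatives). Of 119 list medians under alternatives, 14 moved by more than the spread between replicates. The young adult list stayed between -6.24 and -4.81 and the dauer list between 1.54 and 3.80, while the male, larval and L4 lists took both signs. The cause of these changes was not tested. The number of libraries limits the precision of every value.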

Other observations

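The 2 libraries of mixed worms entered no comparison. The 35 young adult list genes had a median of 83.02 and 114.89 RPKM there, within or near the range of direct young and mature adults, and the dauer list 1.15 and 0.91 RPKM. The 107 genes lower in post-dauer mature adults had medians of 34.26 and 35.80 RPKM in mixed worms, and the 577 higher genes 6.33 and 5.50 RPKM. In the library of mixed embryos these medians were 0.21 and 5.62 RPKM. The rule for L1 genes found 1 gene, which was not called and had levels of 9.63 and 13.96 RPKM in post-dauer and 1.13 and 2.49 RPKM in direct mature adults.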
